A study of Homo sapiens with 4 samples.

Results

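LIN28, the let-7 microRNA family and the oncofetal RNA-binding genes that let-7 holds down were followed through 10 genes, namely LIN28A, LIN28B, HMGA1, HMGA2, IGF2BP1, IGF2BP2, IGF2BP3, TRIM71, MYCN and DICER1, among 20501 genes named on the arrays. Every probe whose annotated RefSeq transcript belonged to one of these genes was taken, which gave 13 probes, with 3 for HMGA2, 2 for IGF2BP2 and 1 for each of the others. The genes had been selected with their signals on these same arrays in view, so the values below are a description and carry no test.

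MCF-10A, a non-tumorigenic human mammary epithelial cell line of basal character, was treated for 24 h or 48 h with 10 µM of a hydrocarbon-stapled peptide. The peptides are analogs of ERAP, a peptide that blocks the binding of BIG3 to the tumour suppressor PHB2, and the arrays were made to look for off-target effects in these cells, which the study describes as lacking oestrogen receptor-alpha and BIG3. RNA was labelled with Cy3 and hybridized to 4 single-colour Agilent arrays on 1 slide, with 1 array for each peptide and time. In the labels the peptides are called stapled-peptide and non-specific stapled-peptide, treatment with the latter is marked as control, and neither name is tied to a numbered analog. Of the numbered analogs compared on its arrays, the study proposes off-target effects for 1, and the labels do not say which peptide that is. All 4 groups are labelled as the same cell line in the same growth medium, no untreated culture was hybridized, and each group is 1 culture, so no difference has a replicate check. Each difference below is a log2 value of the non-specific array from which that of the stapled-peptide array at the same time was subtracted, or, for 1 peptide, 48 h minus 24 h. As these are bulk RNA samples, fewer cells of a type and less RNA per cell cannot be told apart.

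LIN28A and LIN28B are RNA-binding proteins with a cold shock domain and zinc knuckles that bind the precursors of let-7 and stop their maturation by the nuclease DICER1. Mature let-7 in turn pairs with the mRNAs of LIN28B, HMGA2, the IGF2BP genes, TRIM71 and MYCN and lowers them, so LIN28 and let-7 oppose each other. Most of these genes are active in the embryo, are silent or low in adult epithelium and are switched on again in many tumours, which is why they are called oncofetal.

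The mature let-7 sequences are shown because their shared seed is what joins the targets in the list. RefSeq (GRCh38.p14) lists 9 mature let-7 sequences of the 5′ arm, made from 12 genes, and all 9 carry 1 seed. In the lines that follow, capitals mark the seed, bases 2 to 8 from the 5′ end.
let-7a-5p: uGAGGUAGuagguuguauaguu
let-7b-5p: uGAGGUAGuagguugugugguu
let-7c-5p: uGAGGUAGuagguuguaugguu
let-7d-5p: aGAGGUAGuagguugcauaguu
let-7e-5p: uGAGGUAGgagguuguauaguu
let-7f-5p: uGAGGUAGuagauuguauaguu
let-7g-5p: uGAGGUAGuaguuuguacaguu
let-7i-5p: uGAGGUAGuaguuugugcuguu
miR-98-5p: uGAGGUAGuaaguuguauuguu
This seed stands in 11 of 2351 mature human microRNA sequences of the table (0.468%). The further sequences with it are miR-4458 and miR-4500. The probes of the arrays measured mRNAs and long RNAs, and mature let-7 was not measured.

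The hairpins show the part of the precursor that the zinc knuckles of LIN28 read, the letters GGAG in the loop. GGAG, searched on the RNA strand, was present in 9 of 12 let-7 hairpins, against 678 of 1562 human hairpins (43.4%). It lay between the mature arms in 8 of the 11 let-7 hairpins for which both arms are listed. Below, a hairpin with the letters (in capitals) is set beside a hairpin without them, both from GRCh38.p14.
MIRLET7G (chr3:52268278-52268361, minus strand): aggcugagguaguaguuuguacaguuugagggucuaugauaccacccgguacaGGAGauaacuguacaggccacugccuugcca
MIRLET7A3 (chr22:46112749-46112822, plus strand): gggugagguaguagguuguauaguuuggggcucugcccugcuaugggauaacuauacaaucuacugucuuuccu
The letters are a description of the sequence, and binding was not measured here.

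Of the 4 arrays, 62.5 to 65.7% of spots were well above background as marked by the scanner software, replicate spots had a median coefficient of variation of 4.86 to 5.39%, and no member spot was saturated. The array labelled non-specific stapled-peptide 48 h stood apart from the rest. Across probes, its normalized signals correlated with those of the other arrays at r = 0.80 to 0.81, whereas the other arrays correlated with each other at r = 0.98. All 9 genes listed as markers of basal mammary epithelium, the cell type of MCF-10A, were at least 2-fold lower there than on the stapled-peptide 48 h array, and their summed signal was 512 there against 135334 to 140762 on the other arrays. KRT5, a basal keratin, had log2 signals of 14.65, 14.54, 14.59 and 5.02 in the order stapled-peptide 24 h, non-specific 24 h, stapled-peptide 48 h and non-specific 48 h, so the basal markers went against the label of that array as MCF-10A, although all 9 were still marked as well above background. Whether its RNA came from MCF-10A was not tested, and every difference between the peptides at 48 h involves this array. Of 12 genes listed as markers of embryonic kidney lines, 11 gave a fold at 48 h. On the non-specific array 7 were at least 2-fold higher and 1 was lower, where 21.2% of all genes were higher and 19.8% lower. This list was also chosen with earlier results of these data known. NEFL, NEFM and INA entered as bounds that could only lie above 0, so nothing is read from these counts. The summed signal of the 12 genes was 2204 to 2459 on 3 arrays and 23665.5 on the non-specific 48 h array. CKB, the brain-type creatine kinase, differed by 6.13 and the neurofilament NEFM by at least 8.05. HOXA9 differed by 2.88 and by 0.03 at its other probe. HOXA10 went the other way, by −1.13, but differed by 2.27 at its other probe. PAX2 had a bound of −0.59, with 3.89 at its other probe. L1CAM had a bound of −0.58, EYA1 differed by 0.43, and PHOX2A was dim on every array. The sum of this list rests on few bright genes too, such as CKB, at 13.30 on the non-specific 48 h array. The summed signals of the luminal (6559), fibroblast (185), endothelial (62.2) and leukocyte (121.5) lists were lower on that array than on any other (at least 30572, 29543, 674 and 1426). These sums rest on few bright genes, such as DCN for fibroblasts (−9.15) and KRT18 for luminal cells (−2.34), while 3 of 6 luminal genes lay within 2-fold, FOXA1 was higher by 1.31 and COL1A1 differed by 0.13. COL1A2, COL3A1 and PGR, which define fibroblasts and hormone-responsive luminal cells, were dim on all 4. What part these markers have in the differences of the let-7 genes was not tested. The peptide comparison at 48 h and the time comparison with non-specific stapled-peptide both contain this array, and the peptide comparison at 24 h and the time comparison with stapled-peptide are those without it.

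LIN28B, IGF2BP1, IGF2BP3, TRIM71 and DICER1 had at least 2-fold more signal on the non-specific array than on the stapled-peptide array at 48 h, HMGA1, HMGA2 and IGF2BP2 differed by less than 2-fold at their brightest probe, and LIN28A and MYCN were dim on both arrays. LIN28B, IGF2BP1 and TRIM71 were well above background on the non-specific 48 h array and on no other. At 24 h, no member with a signal reached 2-fold between the peptides.

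**Figure D1:**
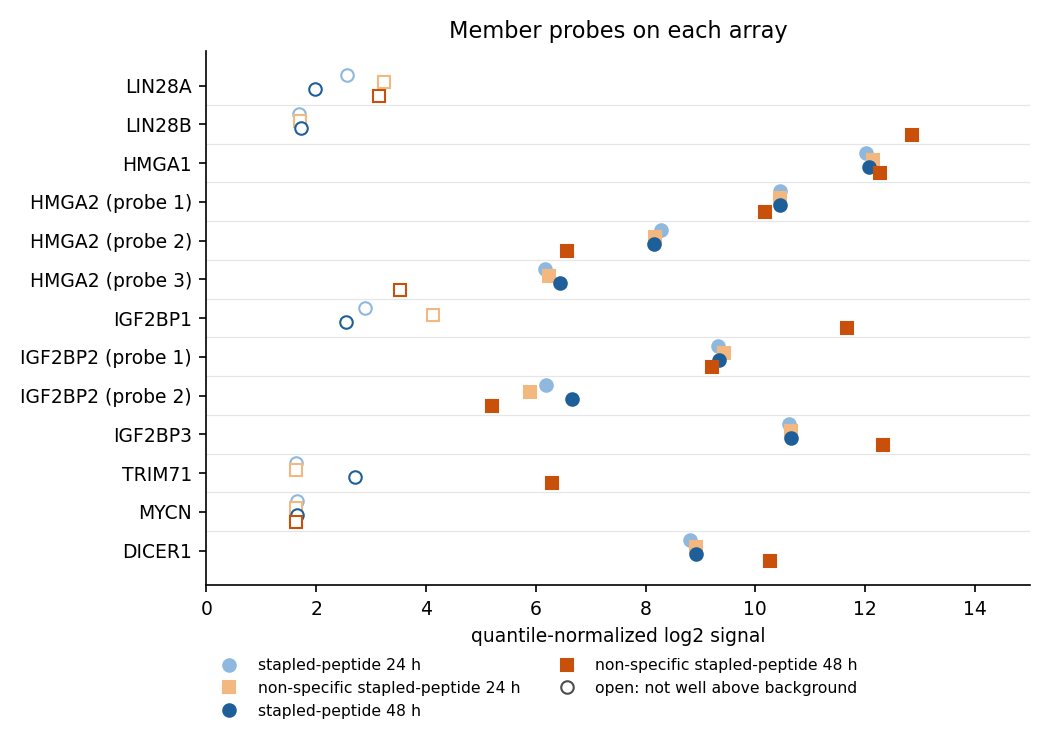
Quantile-normalized log2 signal (x axis) of each of the 13 member probes (y axis) on the 4 arrays, with open symbols where the probe was not well above background and probes of 1 gene numbered from the brightest down. LIN28B, IGF2BP1 and TRIM71 are open on 3 arrays and filled at 12.86, 11.67 and 6.30 on the non-specific 48 h array, whereas HMGA1 lies between 12.01 and 12.28 on all 4.

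LIN28A, the paralog of pluripotent cells (NM_024674), gave log2 signals of 2.57, 3.24, 1.97 and 3.15, in the order stapled-peptide 24 h, non-specific 24 h, stapled-peptide 48 h and non-specific 48 h, which is kept for every member below. None of these was well above background, so no fold was given. LIN28B (NM_001004317), a paralog that can also act in the nucleus on primary let-7 transcripts, gave 1.69, 1.71, 1.72 and 12.86. The signal was thus dim on 3 arrays and bright on the non-specific 48 h array alone. At 48 h the difference was at least 8.98 on the log2 scale, or at least 504-fold, the stapled-peptide array being taken at the lowest signal that the software marked as well above background there. Of 17112 genes with a fold at 48 h, 8 had a larger positive difference. This rank is that of a bound, and the gene was picked with its value known, so nothing is read from it. From 24 h to 48 h, the difference with the non-specific peptide was at least 9.08. With the measured dim value in place of the bound it was 11.14 at 48 h, and with the normexp background correction, still as a bound, at least 6.74.

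The promoter sequences are printed because LIN28B and IGF2BP3 are the members with the MYC-type E-box CACGTG in a listed promoter. TRIM71 and DICER1, which were also at least 2-fold higher on the non-specific 48 h array, have listed promoters without it. RefSeq promoters of GRCh38.p14, each of 300 bases, were found for 7 of 10 members, with 14 promoters in all, and none was listed for LIN28A, HMGA2 and IGF2BP1. Capitals mark the E-box CACGTG, which reads the same on both strands, and the GC box GGGCGG or its reverse complement CCGCCC.
LIN28B (chr6:104940715-104941014, plus strand): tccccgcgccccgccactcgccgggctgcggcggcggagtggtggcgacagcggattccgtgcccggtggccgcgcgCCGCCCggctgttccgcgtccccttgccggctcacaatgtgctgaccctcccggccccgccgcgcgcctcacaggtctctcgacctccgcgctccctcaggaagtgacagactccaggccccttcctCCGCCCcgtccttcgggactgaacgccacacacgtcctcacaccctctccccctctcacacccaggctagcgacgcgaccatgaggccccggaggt
LIN28B (chr6:104956857-104957156, plus strand): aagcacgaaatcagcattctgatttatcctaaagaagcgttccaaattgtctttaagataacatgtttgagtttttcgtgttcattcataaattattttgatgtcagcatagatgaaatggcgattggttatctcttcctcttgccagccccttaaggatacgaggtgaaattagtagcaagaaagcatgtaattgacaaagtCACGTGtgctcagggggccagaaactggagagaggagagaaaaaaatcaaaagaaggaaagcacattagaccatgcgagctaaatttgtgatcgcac
IGF2BP3 (chr7:23470442-23470741, minus strand): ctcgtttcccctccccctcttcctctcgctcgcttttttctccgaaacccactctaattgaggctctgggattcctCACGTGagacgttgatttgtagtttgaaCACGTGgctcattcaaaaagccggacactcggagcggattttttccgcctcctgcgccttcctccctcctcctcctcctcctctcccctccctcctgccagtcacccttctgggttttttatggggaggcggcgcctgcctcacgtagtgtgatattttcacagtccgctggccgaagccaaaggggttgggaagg
The E-box was in 7.26% of all 35116 promoters and in 2 of the 14 member promoters, 1 each of LIN28B and IGF2BP3. The GC box was in 45.0% of all promoters and in 7 of the 14 member promoters. The TATA letters TATAAA, searched on both strands, were in 11.5% of all promoters and in 1 of the 14 member promoters, a promoter of IGF2BP2. No binding or methylation at these promoters was measured, and a match in the letters is only a match.

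DICER1 (NM_001195573), the ribonuclease that cuts let-7 precursors to their mature length and is itself a let-7 target, gave 8.81, 8.93, 8.92 and 10.27. Its signal was close to even on 3 arrays and higher on the fourth, by 1.34 or 2.54-fold at 48 h against stapled-peptide and by 1.34 against 24 h with the same peptide. The difference between the peptides at 24 h was 0.12.

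HMGA1 (NM_145901), an architectural chromatin protein that bends AT-rich DNA, gave 12.01, 12.14, 12.08 and 12.28. This was a narrow range, with differences of 0.13 at 24 h and 0.20 at 48 h. HMGA2, its paralog and the classical let-7 target, had its brightest probe (NM_003483) at 10.46, 10.45, 10.44 and 10.17. That probe differed by −0.27 at 48 h and by −0.01 at 24 h.

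The other probes of HMGA2, both annotated to the transcript NM_003484 that has a different last exon, did not behave like the first. The brighter of them gave 8.29, 8.18, 8.16 and 6.58, a difference of −1.58 at 48 h, and the dimmer gave 6.16, 6.25, 6.45 and 3.53, the last not well above background, a difference of −2.88 or more in size. All 3 probes of HMGA2 were lowest on the non-specific 48 h array, by amounts from less than 2-fold to at least 7.38-fold. With the mean over its probes, HMGA2 stood at −1.58 at 48 h and was the member at least 2-fold lower.

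The IGF2BP proteins bind and stabilise mRNAs, among them those of IGF2, MYC and ACTB, and differ in where they are made: IGF2BP1 and IGF2BP3 are largely embryonic, and IGF2BP2 persists in adult tissue. IGF2BP1 (NM_006546) gave 2.88, 4.13, 2.54 and 11.67. It was dim on 3 arrays and bright on the non-specific 48 h array, with a difference of at least 7.79 at 48 h (at least 221-fold) and of at least 7.54 against the 24 h array of the same peptide. With normexp the difference at 48 h was at least 5.48, and with the measured dim value in place of the bound it was 9.14. The probe stands on each array 10 times, so the error between spots could be seen. On the non-specific 48 h array, the log2 spot signals before normalization ran from 11.66 to 11.78 (SD 0.036, n = 10 spots) and all 10 were well above background. On the stapled-peptide 48 h array they ran from 1.62 to 3.58 (SD 0.71, n = 9 spots, 1 spot marked as an outlier being left out), and none was well above background. At 24 h, 0 of 10 spots were well above background with stapled-peptide and 3 of 10 with non-specific stapled-peptide, where spots spread from 2.21 to 6.22 (SD 1.36). The spots of the bright array were thus tight and those of the dim arrays loose, and the error between spots does not include that between cultures.

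**Figure D2:**
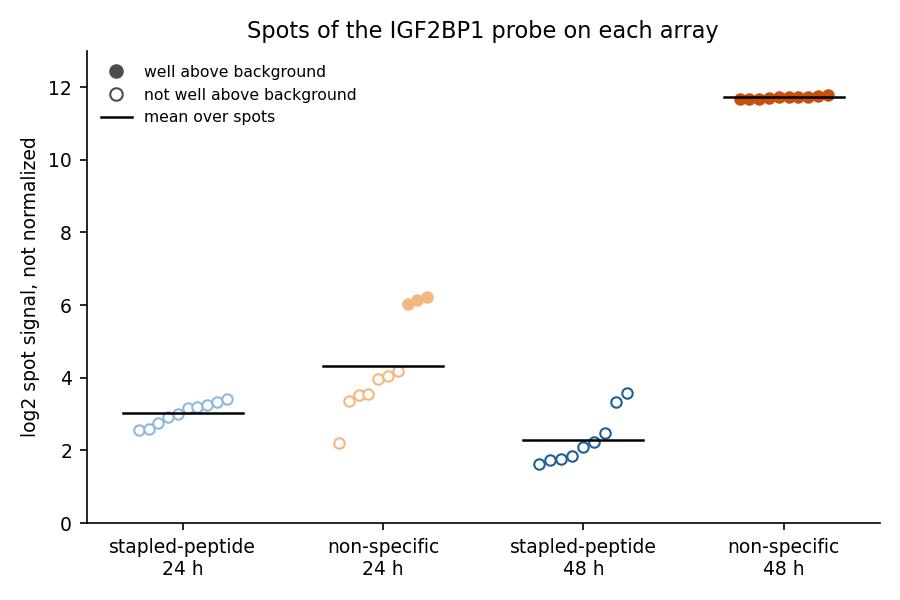
Log2 spot signal before normalization (y axis) of the IGF2BP1 probe on each array (x axis), 1 point per spot, filled where the spot was well above background, with the mean as a line. The 10 spots of the non-specific 48 h array lie between 11.66 and 11.78, and the highest spot elsewhere is at 6.22.

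IGF2BP3 (NM_006547) was well above background on every array, at 10.61, 10.65, 10.65 and 12.32. The first 3 arrays lay together, and the non-specific 48 h array was 1.67 higher (3.18-fold) than stapled-peptide at 48 h and 1.67 higher than the same peptide at 24 h. IGF2BP2 (NM_006548) gave 9.32, 9.43, 9.35 and 9.20 at its brighter probe, with differences of 0.10 at 24 h and −0.14 at 48 h. Its dimmer probe, of the same transcript, gave 6.19, 5.90, 6.66 and 5.20, or −1.46 at 48 h. The 3 paralogs thus had different signs or sizes of difference at 48 h, and the probes of IGF2BP2 disagreed by more than 2-fold.

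TRIM71 (NM_001039111), a stem cell ubiquitin ligase and mRNA repressor also known as LIN-41, gave 1.63, 1.63, 2.71 and 6.30. It was dim on 3 arrays and of low signal on the non-specific 48 h array, with a difference of at least 2.41 at 48 h and of at least 2.52 against 24 h. With the normexp background correction the difference at 48 h was at least 0.99, a bound that does not reach 2-fold. MYCN (NM_005378), the MYC paralog of the embryonic nervous system, gave 1.65, 1.63, 1.65 and 1.63 and was dim on all 4 arrays, so no fold was given.

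Counted over the list, 8 of 10 members had a fold at 48 h. Of these, 5 (62.5%) were at least 2-fold higher on the non-specific array, where 21.2% of 17112 genes were, and 0 were at least 2-fold lower, where 19.8% of genes were. At least 10-fold higher were 2 members, LIN28B and IGF2BP1 (25%), against 2.64% of genes, and 0 members were at least 10-fold lower, against 3.92% of genes. The members were picked with these differences known, so nothing is read from these shares. Among all genes called at 48 h, 51.7% were the higher ones, and without normalization between arrays this was 62.6%, with the median of all genes moving from 0.03 to 0.26. The median difference of the 8 members was 1.51 at 48 h, against 0.03 for all genes, whose differences had an SD of 1.76. LIN28B, IGF2BP1 and TRIM71 entered it as bounds that could only lie above 0, so nothing is read from this median either. At their brightest probes, the members measured on both arrays differed by 0.20 (HMGA1), −0.27 (HMGA2), −0.14 (IGF2BP2), 1.67 (IGF2BP3) and 1.34 (DICER1). The other probes differed by −1.58 and by −2.88 or more in size for HMGA2, and by −1.46 for IGF2BP2. The count of 0 lower members thus holds at the brightest probes.

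At 24 h, 5 members had a fold, HMGA1, HMGA2, IGF2BP2, IGF2BP3 and DICER1. Between the peptides 0 were 2-fold higher, against 0.838% of 16228 genes, and 0 were 2-fold lower, against 1.04%. Their median was 0.10, and the SD over all genes was 0.34. With stapled-peptide, the same 5 members had a fold between 24 h and 48 h, with 0 higher (0.923% of 16138 genes) and 0 lower (1.13%). These are the comparisons without the array that stood apart, and every member measured in them lay within 2-fold. With non-specific stapled-peptide, which shares its 48 h array with the peptide comparison at 48 h, 5 of 8 members were higher at 48 h than at 24 h (21.3% of 17297 genes) and 0 were lower (20.1%), the 5 being LIN28B, IGF2BP1, IGF2BP3, TRIM71 and DICER1.

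**Figure D3:**
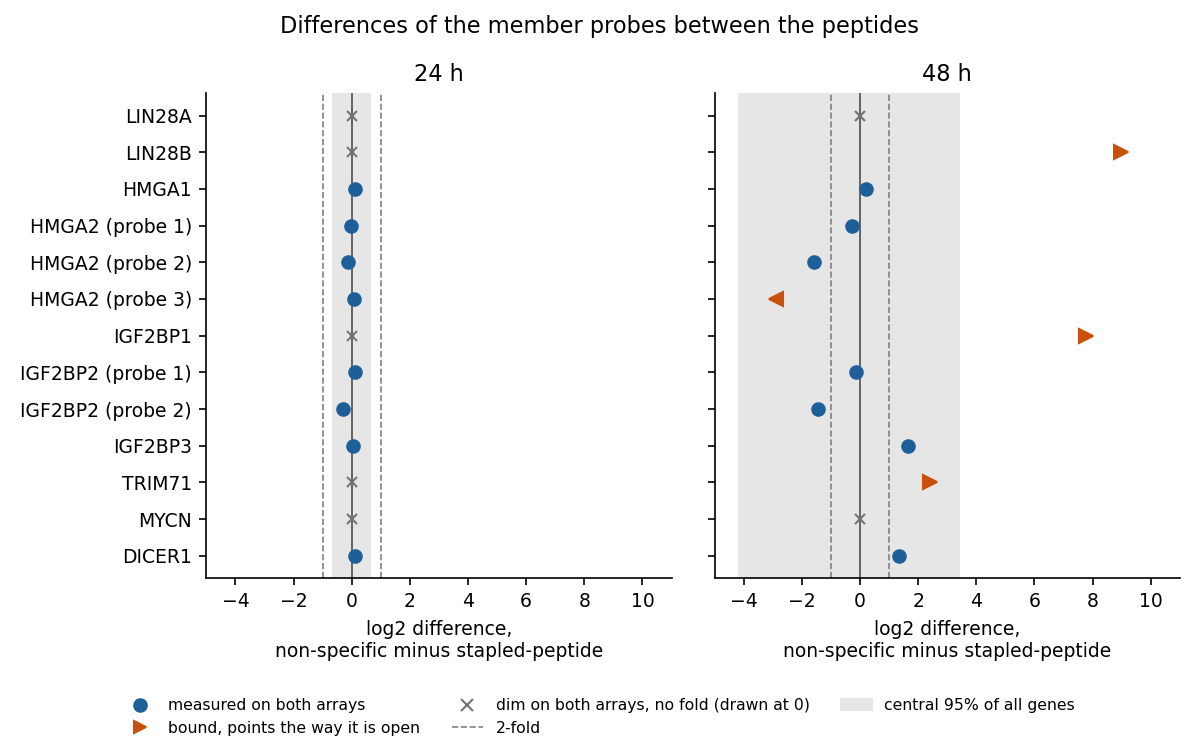
Log2 difference between the peptides (x axis, non-specific minus stapled-peptide) of each member probe (y axis) at 24 h and at 48 h, with circles for measured values, triangles for bounds, crosses for probes dim on both arrays and a grey band that holds the central 95% of all genes. At 48 h LIN28B (at least 8.98) and IGF2BP1 (at least 7.79) lie outside the band, which ends at 3.41, and at 24 h all measured members lie inside it.

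The genes with a 4-array profile most like that of LIN28B were found by the Euclidean distance between centred log2 profiles over the 4 arrays, among 17674 genes. They were HOXB9, a homeobox gene of the posterior body axis (distance 0.38), BEX2 (0.69), the glutathione transferase GSTM3 (0.80), the neuropeptide gene GAL (0.81) and UCHL1, a neuronal ubiquitin hydrolase (0.87). HOXB9 gave 1.97, 1.84, 1.87 and 13.47, a difference of at least 9.58 at 48 h. IGF2BP1 came 30th, at a distance of 2.59. By the background mark alone, 1108 of the 20501 genes (5.40%), 3 members among them, were well above background on the non-specific 48 h array and on no other.

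The machinery that makes and uses let-7 was measured in full, with 18 of 18 genes well above background on all 4 arrays. At 48 h, 4 were at least 2-fold higher on the non-specific array, near the share of all genes (21.2%), 2 were lower, where 19.8% of all genes were, and 12 lay within 2-fold, with a median of −0.08. The counts of the lists that follow are read against the same shares. The higher genes were DGCR8, the RNA-binding partner of DROSHA (7.28, 7.52, 7.54 and 9.85, a difference of 2.31), XPO5, which exports precursors from the nucleus (1.47), KHSRP, which promotes let-7 maturation (1.32), and TARBP2, the DICER1 partner (1.03). The other probes of XPO5 differed by 0.65 and 1.29. Lower were MSI1, an RNA-binding protein that acts with LIN28 in neural stem cells (−2.26), and TUT7, a uridyl transferase that tails let-7 precursors (−2.05). DROSHA itself differed by 0.48 and the Argonautes AGO1 to AGO4 by −0.75 to −0.62, although the other probe of AGO3 differed by 0.82. At 24 h none of the 18 reached 2-fold, and the median was 0.04.

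The genes that host let-7 microRNAs were on the array in 6 of 9 cases. At 48 h 3 were at least 2-fold lower on the non-specific array and 0 were higher, with a median of −0.86, which turned to 0.24 with dim probes removed. MIR100HG, host of let-7a-2, gave 8.95, 8.90, 9.06 and 1.58, the last not well above background, a difference of −5.50 or more in size. MIRLET7BHG, from the locus of let-7a-3 and let-7b, gave 10.90, 10.71, 11.01 and 6.12, a difference of −4.89. SPACA6, beside the cluster that holds let-7e, differed by −1.97. All probes of these 3 genes with a fold were lower as well. HUWE1, host of let-7f-2 and miR-98, differed by 0.89 and by −0.33 at its other probe, and WDR82, host of let-7g, by 0.24, all within 2-fold. A host transcript is not its microRNA, and levels of let-7 cannot be read from it.

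Of 31 other let-7 targets, all 31 had a fold at 48 h, 11 at least 2-fold higher on the non-specific array, 6 lower and 14 within 2-fold, with a median of 0.77 (0.35 with the normexp background correction). The largest differences above 0 were those of the cell cycle phosphatase CDC25A (7.05, 7.09, 7.04 and 11.85, a difference of 4.81), the AT-rich binding factor ARID3B (4.40), the repressor HIC2 (7.26, 7.46, 7.78 and 11.78) and E2F5 (2.31). Below 0 were the matrix protein THBS1 (11.05, 11.40, 11.22 and 5.65, a difference of −5.57), cyclin CCND1 (−4.15), and PRDM1 and IL6 with bounds of −3.41 and −3.31. Other probes gave smaller differences, 2.27 for HIC2, −2.88 for THBS1 and −1.38 for PRDM1. MYC, named here after its value was seen, lay within 2-fold, at 0.29. The targets thus spread widely to both sides, and at 24 h 0 of 29 reached 2-fold, with a median of 0.09.

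**Figure D4:**
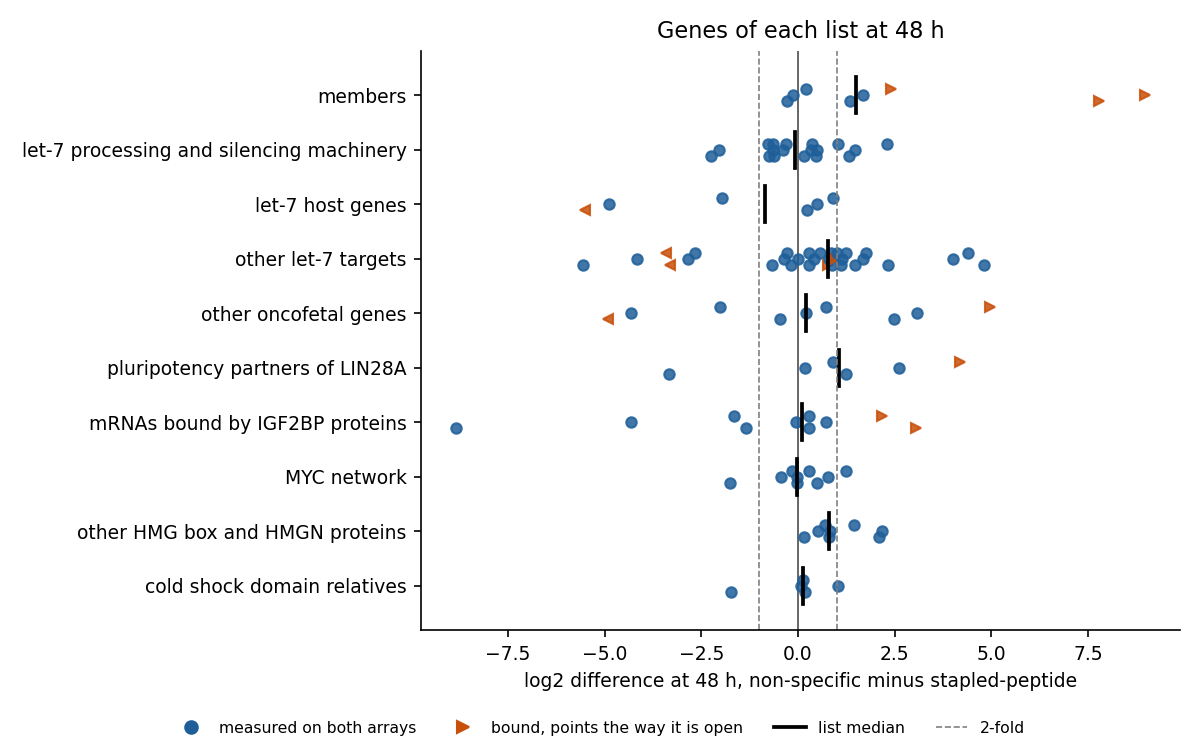
Log2 difference at 48 h (x axis, non-specific minus stapled-peptide) of the genes of each list (y axis), 1 symbol per gene with a fold, triangles for bounds, a black line for the list median and dashed lines at 2-fold. The medians of the 10 lists drawn run from −0.86 for the let-7 host genes to 1.51 for the members, and most lists hold genes on both sides of 0. The median of the members includes 3 bounds that could only lie above 0.

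Of 11 other oncofetal genes, 9 had a fold at 48 h, 3 at least 2-fold higher and 3 lower, with a median of 0.22. Higher were PLAC1, a placental gene (1.91, 1.87, 1.89 and 8.85, a difference of at least 4.97), the stem cell factor SALL4 (3.08) and the heparan sulphate proteoglycan GPC3 (2.47). Lower were PEG10, a retrotransposon-derived placental gene (a bound of −4.92), the imprinted RNA H19, which itself carries let-7 sites (−4.33), and TPBG (−2.03). IGF2, the imprinted neighbour of H19, differed by 0.71. SALL4 was also the gene of this list that passed 2-fold at 24 h, with 5.22 and 6.26 (1.04). Oncofetal genes were therefore on either side at 48 h.

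Among the genes that act with LIN28A in pluripotent cells, 6 of the 8 on the array had a fold at 48 h, with 3 higher and 1 lower and a median of 1.07. That median includes SOX2 as a bound that could only lie above 0. It was 0.91 with dim probes removed, 0.59 with normexp and 1.41 without normalization. SOX2 gave 1.82, 1.81, 1.83 and 8.08 (at least 4.19), the DNA methyltransferase DNMT3B differed by 2.61 and NANOG by 1.24, while KLF4 differed by −3.32. POU5F1 differed by 0.91, its other probe by −0.27, and DPPA4 and ZFP42 were dim on all 4 arrays.

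The mRNAs that IGF2BP proteins are known to bind were split at 48 h, with 2 of 10 at least 2-fold higher, 4 lower and a median of 0.11, which turned to −0.70 with dim probes removed. GLI1 and MAPK4 were higher by at least 3.04 and 2.18. The hyaluronan receptor CD44, with 13.97, 14.01, 13.97 and 5.12, differed by −8.85 at its brightest probe and by −1.83 at its other probe, H19 by −4.33 and ACTB by −1.66. MYC, at 0.29, and CTNNB1, at −0.06, lay near 0.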

How the data were processed

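Values were those of 4 single-colour Agilent arrays of MCF-10A cells, 1 per group. The authors deposited spot intensities from Agilent Feature Extraction (version 10.7.1.1 per the file headers, 9.5 per the labels), background-subtracted and not normalized between arrays, with the marks of the software, and a combined table of the same intensities. Control spots and spots marked as outliers were left out, log2 signals were averaged per probe and quantile-normalized over the 4 arrays. Of these steps the study's methods state the quantile normalization, followed by a transformation of signals to the median, which was not applied here. A probe took the mark of being above background that the majority of its spots carried. A probe dim on 1 array entered as a bound at the lowest well-above-background signal there, unless its own signal was higher, and a probe dim on both arrays gave no fold. A gene was taken at its probe with the highest mean signal. RefSeq accessions (GRCh38.p14) named 28168 of 50590 probes. Called means past 2-fold or past 10-fold, without a test. The members and the gene lists were chosen with earlier results of these data known. From each list the text names the genes past 2-fold at 48 h, or the 4 largest in each direction, the defining markers, and the 5 genes nearest to LIN28B. Single values of some list genes are not reported here. The steps were tested on simulated data. The 8 alternative settings are named in the closing section. Python 3.11.15 with numpy 2.4.6 and pandas 2.3.3 was used, and limma 3.58.1 for normexp with an offset of 50.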

Additional observations from a re-analysis of the deposited data

How the results depend on the processing

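In the 8 alternatives, arrays were scaled to the 75th percentile or left without normalization, normexp was used, dim probes entered as measured or were removed (probes well above background on both arrays alone), outlier-marked spots were kept, the probes of a gene were averaged, or the authors' combined table was the input. No difference of a member changed sign past 2-fold under any of them. With dim probes removed, 2 members in place of 5 were higher at 48 h, between the peptides and against 24 h, since LIN28B, IGF2BP1 and TRIM71 then have no value. With the mean over probes, 1 member, HMGA2, was lower in both comparisons. Of the list medians between the peptides at 48 h, that of other let-7 targets was 0.35 with normexp, and that of the pluripotency list 0.59 with normexp and 1.41 without normalization. With dim probes removed, the host genes stood at 0.24 and the IGF2BP-bound mRNAs at −0.70, both with the sign turned, and with the mean over probes the MYC network stood at 0.31. Against 24 h with non-specific stapled-peptide, the pluripotency list stood at 0.63 with normexp, and with dim probes removed the host genes stood at −0.42, other oncofetal genes at 0.28 and IGF2BP-bound mRNAs at −0.67. The other 278 list medians moved by less than 0.34 on the log2 scale, the SD of the differences of all genes at 24 h, and the other 60 member counts by at most 1. Of single member differences, 16 moved by more than this SD and 186 by less, the former including the bounds of LIN28B, IGF2BP1 and TRIM71 with normexp and without a bound. By construction, the setting without a bound puts the dim value in its place, and the mean over probes brings in the other probes. The stricter filter tests fewer genes. Further causes of these moves were not tested. No paired analysis was possible because each group is 1 array. Low signals limit LIN28A and MYCN, for which no fold can be given. They also limit TRIM71, which was dim on every array but the non-specific 48 h one, where it stood at 6.30.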

Other observations

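Genes related to the members by family were also measured at 48 h. Of the 8 other chromatin proteins of the HMGB and HMGN families, 3 were at least 2-fold higher on the non-specific array and 0 were lower, with a median of 0.80. HMGB2, which is high in dividing cells, gave 11.19, 11.34, 11.29 and 13.47 in the order stapled-peptide 24 h, non-specific 24 h, stapled-peptide 48 h and non-specific 48 h, HMGN5 differed by 2.08 and HMGB3 by 1.44. HMGA1 and HMGA2 themselves had lain within 2-fold at their brightest probes. At 24 h the 8 genes had a median of 0.11, and none reached 2-fold.

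Of the MYC network, 9 of 10 genes had a fold at 48 h, with MGA higher (1.25), the MYC antagonist MXD4 lower (−1.75) and a median of −0.04. MYCL was dim at its brighter probe on all 4 arrays, like MYCN, while its other probe differed by at least 4.10. Of the 5 relatives of LIN28 with a cold shock domain, the germ cell protein YBX2 was higher (1.04) and CARHSP1 lower (−1.72), with a median of 0.13. YBX1 gave 12.03, 12.10, 12.04 and 12.21, and its other probe differed by 1.17.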
